A study of Mus musculus with 6 samples.

Results

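Cytosolic ribosomal protein genes were examined for open chromatin at their ends in mouse urothelial cells that had lost or kept Stag2, which encodes a subunit of the cohesin ring. The genes were chosen by name only: protein-coding genes with the symbol Rpl or Rps followed by digits and at most one letter (a, x or l), together with Rplp0, Rplp1, Rplp2 and Rpsa. The rule found 81 genes among 21883 protein-coding genes of the mm10 annotation, of which 47 encode proteins of the large subunit, 3 encode the stalk and 31 encode proteins of the small subunit. Stag2-KO and Stag2-WT mice, 3 libraries each, were both fed TMX for 1 week, and the libraries are labelled as taken 1 week after induction. ATAC-seq, in which a transposase cuts and tags accessible DNA, was run on 50000 viable urothelial cells per condition, sorted from peeled bladder lining as GFP-positive and DAPI-negative. The promoter that drives the deletion, the strain, sex and age of the mice, and the number of mice behind a library are not stated in the labels. The p-values therefore measure the spread between these 6 libraries. All 6 carry the same batch number in the labels.

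Ribosomal proteins and ribosomal RNA build the small subunit, which reads the mRNA, and the large subunit, which joins amino acids and passes the chain out through a tunnel. Because every growing cell needs the proteins in matched amounts, their genes are among the most steadily expressed in mammals. Their start sites usually lie in a run of pyrimidines, so that the mRNAs begin with a terminal oligopyrimidine (TOP) tract, through which the kinase mTOR controls their translation. Many of the genes carry small nucleolar RNAs, guides of ribosomal RNA modification, in their introns. In the annotation, 28 of the 76 genes tested below (36.8%) held a small nucleolar RNA gene within their span, against 2.04% of all genes tested.

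Each library came with its own list of peaks, and the fold of a peak over local background, as the authors' caller gave it, served only to rank the intervals within a list. Lists held 149153 to 260462 distinct intervals in the KO libraries and 165214 to 174275 in the WT libraries, so each was shortened to its best 100000. A gene was scored by the best-ranked interval in windows reaching 1000 bp to each side of both span ends, at whichever end ranked better on average, and rank 1 is the highest fold. Where no interval lay there, the rank just after the last was used. The labelled tissue was looked at through marker genes. An interval at a gene end in all 6 libraries was found for 15 of 19 urothelial markers, against 12969 of all 21883 genes. It was found for 2 of 6 fibroblast, 3 of 4 smooth muscle, 0 of 5 endothelial and 2 of 6 leukocyte markers. By mean rank, the tested urothelial markers had a median percentile of 29.3 among all gene ends (100 is best). It was 40.2 for smooth muscle, 20.2 for leukocyte, 10.3 for fibroblast and 4.08 for endothelial markers. These values do not by themselves establish the labelled tissue. The share of the best 50000 intervals that lay at gene ends was 23.4%, 23.5% and 21.6% in KO and 21.3%, 20.5% and 20.6% in WT (two-sided exact permutation test, p = 0.1, the smallest that 3 against 3 libraries allow).

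Ribosomal protein gene ends were open in both genotypes, and by rank ahead of the median gene end. An interval was found in at least 1 library for 77 of the 81 genes, in at least 3 libraries for 76, which were tested, and in all 6 libraries for 75. The median rank of the 76 genes was 13786, 18451 and 15493.5 in the KO libraries, and 12912, 19396.5 and 16316.5 in the WT libraries. All 14286 gene ends tested had medians of 20574.5, 24456.5 and 24722 in KO, and 23954, 29844 and 27339.5 in WT. In each library, then, the median ribosomal protein gene stood ahead of the median gene end. Their median fold over background was 19.2, 22.6 and 17.3 in KO and 15.8, 22.3 and 17.4 in WT. By mean rank over the 6 libraries the 76 genes ran from percentile 23.6 to 98.5 of all gene ends, with a median of 67.2. In every library 41 of them were ahead of the median gene end, in none 10, and 25 were mixed. The 76 tested mitochondrial ribosomal protein genes, whose products build the separate ribosome of the organelle, had medians of 13772, 17236.5 and 14487.5 in KO and 12628.5, 18119 and 16199 in WT, close to the cytosolic set.

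**Figure D1:**
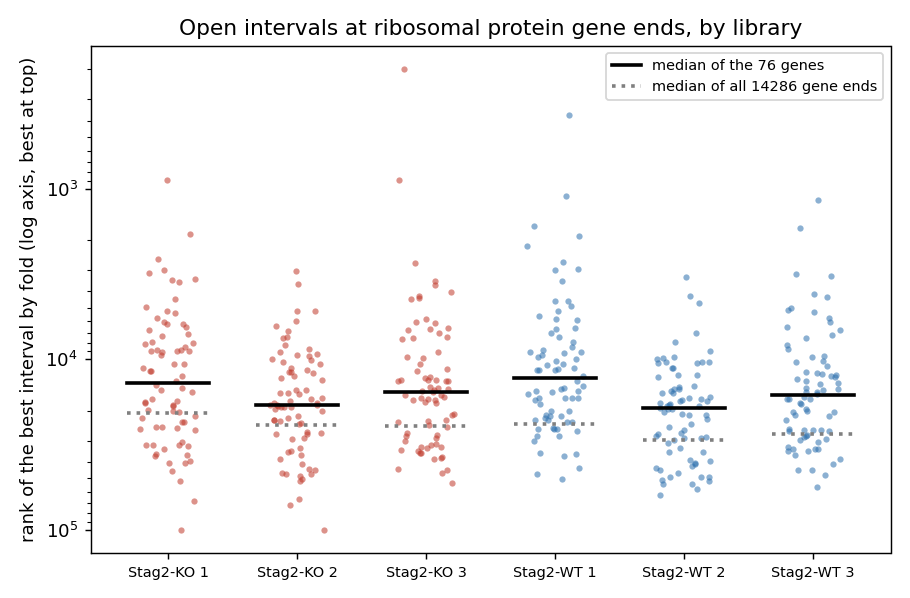
Rank of the best interval by fold (log axis, best rank at the top) for each of the 76 tested ribosomal protein genes (points) in the 3 KO and 3 WT libraries. Black bars are the medians of these genes, 12912 to 19396.5 over the libraries, and dotted grey bars are the medians of all gene ends tested, 20574.5 to 29844.

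The 5 genes with the best mean rank over the 6 libraries came from both subunits. Rps26, a small subunit protein at the exit of the mRNA channel, ranked 3414, 3615 and 199 in KO and 371, 3285 and 1168 in WT. Rps13, also of the small subunit, ranked 896, 3021 and 896 in KO and 1905, 4689 and 3179 in WT. Rpl30 of the large subunit ranked 2573, 6421 and 2725 in KO and 1110, 4235 and 1698 in WT. In these 3 genes the KO and WT ranks overlapped, as they did for Rps6, the substrate of the S6 kinases, which ranked 3387, 8228 and 3499 in KO and 4554, 6991 and 6039 in WT. Rpl31, a protein near the tunnel exit, completed the 5 best genes and is described further below.

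The 5 worst-ranked tested genes were still open in all 6 libraries. Rpl19, Rpl7 and Rpl23a of the large subunit were among them, and the ranks of Rpl23a are given further below. Rpl19 ranked 40780, 51748 and 38175 in KO and 50679, 48783 and 38651 in WT, at an end that is not its start in the promoter table, and Rpl7 ranked 36278, 48439 and 44779 in KO and 35953, 53813 and 44785 in WT. Both genotypes overlapped at each of these 3 genes.

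One feature of the ranks ran across the genotypes. Replicate 2 was the worst KO library for 45 of the 76 genes and the worst WT library for 65, while replicate 1 was the best WT library for 61. The fold at rank 50000 of the whole list moved in the same order, at 8.24, 11.02 and 8.38 in KO and 7.33, 12.1 and 8.80 in WT. Its part in the ranks of these genes was not tested. Over all gene ends the median rank was worst in KO replicate 3 (24722, against 24456.5 in KO replicate 2) and in WT replicate 2 (29844). Counts of the worst library were not taken over all gene ends.

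The sequence around the start is printed for the genes on which the comparison of genotypes turns, where RefSeq's promoter table (GRCm38.p6, the coordinates of mm10) has an entry. These are the 5 genes with the smallest p for a better rank in KO, Rpl6 and Rps18 from those with the smallest p for a worse rank, Rps6 for its width, and Rps2 for the place of its start within the span. Each line gives 90 bases before the start in the table, which is not marked, and 30 bases from it, 5′ to 3′ on the coding strand, in lower case, with capitals for CCGGAAG (the core bound by ETS factors such as GABPA), GGGCGG (the GC box of Sp1), CTTTCC on the coding strand (a pyrimidine run of the kind found at TOP starts), CACGTG (the E-box of Myc), TATAAA (the TATA box) and AAGATGGCG (the core of YY1), all but CTTTCC on both strands, so that GGGCGG can appear as CCGCCC.
Rps16 (chr7:28350599-28350718, plus strand): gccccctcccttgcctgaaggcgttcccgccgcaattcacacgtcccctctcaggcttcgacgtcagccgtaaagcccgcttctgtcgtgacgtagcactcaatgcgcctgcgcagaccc
Rpl35 (chr2:39005102-39005221, minus strand): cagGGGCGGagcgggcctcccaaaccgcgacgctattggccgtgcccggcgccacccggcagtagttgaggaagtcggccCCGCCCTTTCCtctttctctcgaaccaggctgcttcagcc
Rpl14 (chr9:120571427-120571546, plus strand): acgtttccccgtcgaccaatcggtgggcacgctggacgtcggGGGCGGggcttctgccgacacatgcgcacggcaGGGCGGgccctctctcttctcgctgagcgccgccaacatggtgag
Rpl31 (chr1:39367761-39367880, plus strand): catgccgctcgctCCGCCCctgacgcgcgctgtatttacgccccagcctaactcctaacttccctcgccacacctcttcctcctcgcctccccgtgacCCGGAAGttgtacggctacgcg
Rps15a (chr7:118116118-118116237, minus strand): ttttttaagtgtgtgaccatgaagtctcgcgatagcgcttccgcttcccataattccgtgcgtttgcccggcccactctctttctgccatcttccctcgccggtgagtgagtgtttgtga
Rpl6 (chr5:121204411-121204530, plus strand): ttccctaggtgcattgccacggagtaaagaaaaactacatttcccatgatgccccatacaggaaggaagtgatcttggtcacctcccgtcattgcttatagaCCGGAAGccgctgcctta
Rps18 (chr17:33955636-33955755, minus strand): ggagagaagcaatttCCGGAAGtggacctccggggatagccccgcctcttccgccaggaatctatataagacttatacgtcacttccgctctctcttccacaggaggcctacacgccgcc
Rps6 (chr4:86857338-86857457, minus strand): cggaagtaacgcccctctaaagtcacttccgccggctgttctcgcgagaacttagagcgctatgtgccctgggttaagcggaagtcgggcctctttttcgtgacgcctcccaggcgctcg
Rps2 (chr17:24719973-24720092, plus strand): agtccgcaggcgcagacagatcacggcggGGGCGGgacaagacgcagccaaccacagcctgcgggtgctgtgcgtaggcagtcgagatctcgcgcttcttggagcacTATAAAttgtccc
Among the 61 ribosomal protein genes with an entry, 34.4% held CTTTCC on the coding strand within the 300 bases of the entry (250 before the start and 50 from it), against 13.8% of 17491 genes. CCGGAAG was present in 39.3% against 11.9%, GGGCGG in 57.4% against 46.3% and AAGATGGCG in 4.92% against 1.92%. The shares were closer for CACGTG, at 8.20% against 7.91%, and for TATAAA, at 11.5% against 13.3%. GGGCGG and CTTTCC share letters where they overlap, as in Rpl35, where both are marked in a single run. The median GC content was 57.0% against 56.3%. These are matches of letters and not measured binding.

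The summit of the open interval lay, by median, just before the start. For the 49 genes whose interval could be placed around a start of the table, the median distance of the summit from the start was −34, −31 and −30 bp in KO and −31, −32 and −28 bp in WT (negative is upstream). The 8354 genes placed in the same way over all had medians of −31, −29 and −40 bp in KO and −43, −37 and −41 bp in WT. The median summit position of the ribosomal protein genes thus lay within these few bases in both genotypes. Single genes spread more widely, with quartiles of −83 and 13 bp in KO replicate 1. Shifts at single genes were not tested.

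The comparison of Stag2-KO with Stag2-WT asked whether loss of Stag2 in the urothelium moved the openness of these genes. No ribosomal protein gene passed the test in either direction (limma over all gene ends, Benjamini-Hochberg adjusted, smallest adjusted p = 0.316). Of all 14286 gene ends 3 were called better in KO (0.021%) and 7 worse (0.049%). Single libraries moved these counts, to 598 better and 138 worse without KO replicate 3 and to 271 and 147 without WT replicate 2, and in both fits 1 ribosomal protein gene, Rpl17, was called worse. At an unadjusted p below 0.05, 2 of the 76 genes were better in KO (Rps16 and Rpl35) and 1 was worse (Rpl17), against 10.5% and 2.2% of all gene ends. The log2 rank gain, which is the mean −log2 rank in KO minus that in WT, so that a positive value means a better rank in KO, had a median of 0.04 over the 76 genes, with quartiles of −0.18 and 0.30 and a range of −1.78 to 1.19. Over all gene ends the median gain was 0.21. The gain was above 0 in 42 genes and below 0 in 34 (55.3% above, against 68.9% of all gene ends). The 3 KO and 3 WT ranks did not overlap in 5 genes that were better in KO (6.58%, against 15.2% of all gene ends) and in 0 that were worse (against 2.06%). With the replicate number as a block, still 0 were called better (0.014% of all gene ends) or worse (0.049%), and 8 were better and 5 worse at an unadjusted p below 0.05, against 21.5% and 4.46% of all gene ends. A library of many sorted cells cannot tell a larger share of open cells from a wider opening in each cell.

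**Figure D2:**
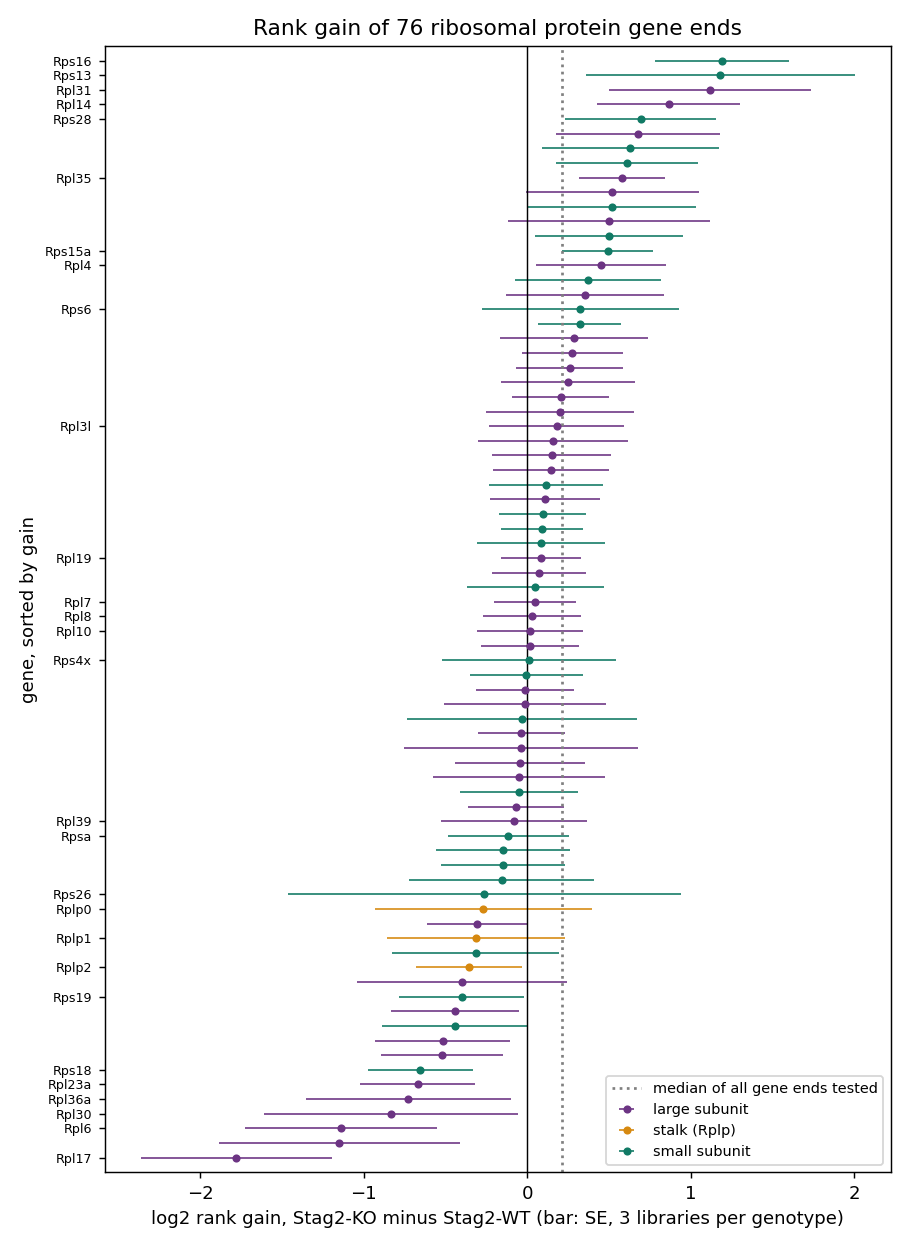
Log2 rank gain of each of the 76 tested genes, Stag2-KO minus Stag2-WT, with its SE over 3 libraries per genotype, coloured by subunit, with names for some of the genes described in the text. The gains run from −1.78 for Rpl17 to 1.19 for Rps16 around 0, and the dotted line marks the median of all gene ends, 0.21.

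The counts were also taken by subunit. The large subunit had a median gain of 0.04 with 25 genes above 0 and 19 below, and the small subunit had 0.08 with 17 above and 12 below. The 3 stalk genes were all below 0, with a median of −0.31. In 51 of the 76 genes the SE exceeded the size of the gain.

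Among small subunit genes, Rps16 had the largest gain of the whole set. Rps16 (chr7:28350689-28352698), whose protein reaches towards the site where tRNA meets the codon, ranked 8971, 7386 and 15053 in KO and 22015, 18849 and 28685 in WT. The worst KO library was ahead of the best WT library. The gain was 1.19 ± 0.41 (SE, n = 3 per group) and did not pass (limma, adjusted p = 0.320). Rps28, at the mRNA exit, ranked 7076, 6878 and 7508 in KO and 9991, 10428 and 14862 in WT, again without overlap (gain 0.69 ± 0.46, adjusted p = 0.518). Rps15a ranked 24944, 23800 and 38438 in KO and 36816, 41996 and 41192 in WT, with KO replicate 3 inside the WT range (0.49 ± 0.28, adjusted p = 0.451). Rps13 had the second largest gain, 1.18 ± 0.82, from the ranks given above. In the other direction Rps18, a protein of the head of the subunit, ranked 45017, 50141 and 34726 in KO and 17282, 39345 and 29652 in WT. Here KO replicate 3 was ahead of WT replicate 2, and the gain of −0.65 ± 0.32 did not pass (adjusted p = 0.404).

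Among large subunit genes the gains of smallest p were at Rpl35, Rpl14 and Rpl31. Rpl35, which sits beside the mouth of the exit tunnel, ranked 23484, 34747 and 37198 in KO and 43547, 48800 and 47588 in WT (gain 0.58 ± 0.26, limma adjusted p = 0.384). Rpl14 ranked 6217, 9389 and 13200 in KO and 15448, 14881 and 20306 in WT (0.87 ± 0.44, adjusted p = 0.410). Rpl31 ranked 1854, 5952 and 4237 in KO and 6628, 9958 and 7241 in WT (1.12 ± 0.62, adjusted p = 0.441). In these 3 genes every KO library was ahead of every WT library, and none passed the test over all gene ends. With the share of gene ends in each library as a covariate, the gains were 0.19 for Rpl35, 0.10 for Rpl14, 0.69 for Rpl31 and 0.35 for Rps16 (adjusted p = 0.9999 each). That share did not itself overlap between the KO and WT libraries, so this fit cannot tell it apart from genotype.

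Gains below 0 were found at Rpl6 and Rpl23a, of which Rpl23a carries a docking site for factors that meet the growing chain. Rpl6 ranked 17169, 17987 and 6136 in KO and 5609, 9731 and 3245 in WT (−1.14 ± 0.59, limma adjusted p = 0.420). Rpl23a ranked 67947, 71370 and 34269 in KO and 23464, 57258 and 30745 in WT (−0.67 ± 0.35, adjusted p = 0.421). At both genes KO replicate 3 lay within the WT range, so the genotypes overlapped.

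Rpl17 (chr18:74998978-75003381), a protein that lines the tunnel, had the lowest gain, and that value turned on the edge of the window. No interval was scored in KO replicates 1 and 2, and the rank was 13201 in KO replicate 3, against 15346, 17503 and 12128 in WT (gain −1.78 ± 0.59, limma adjusted p = 0.316). An interval was present in all 6 libraries, and its nearer edge lay 1135, 1135 and 948 bp inside the lower end of the span in KO, and 970, 965 and 956 bp in WT. With its own rank in each library the gene stood at 10292, 13544 and 13201 in KO and 15346, 17503 and 12128 in WT. With windows of 2000 bp the gain was 0.27, of the opposite sign.

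**Figure D3:**
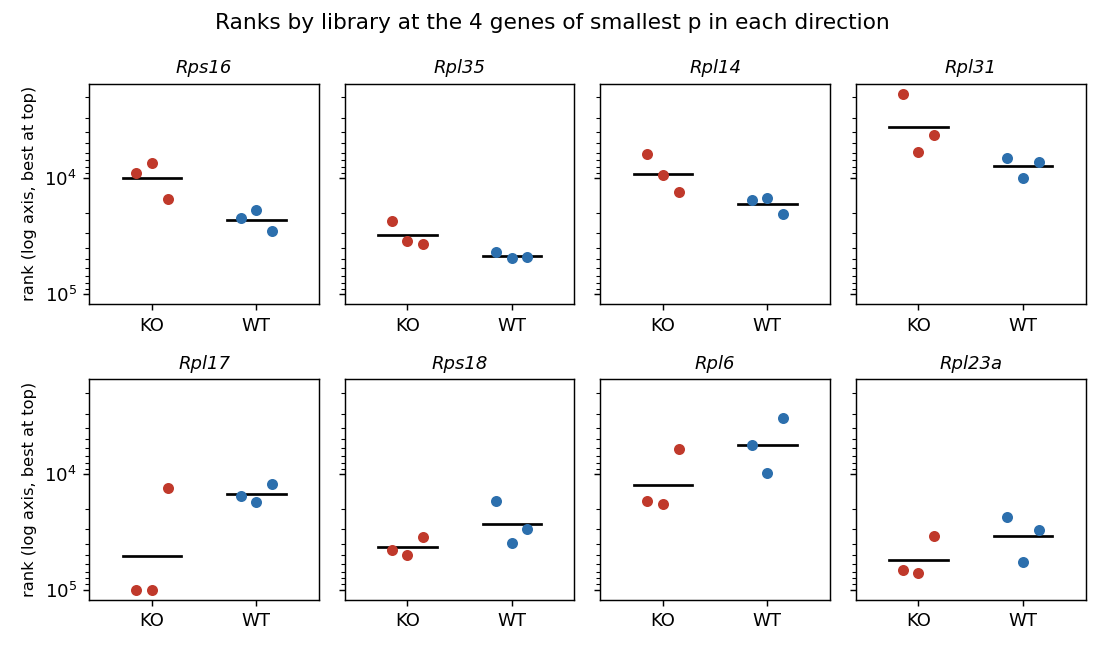
Rank of the best interval (log axis, best at the top) in the 3 KO libraries (red, left) and 3 WT libraries (blue, right) for the 4 genes of smallest p with a gain above 0 (upper row) and below 0 (lower row). Black bars are geometric means. Rps16, Rpl35, Rpl14 and Rpl31 show no overlap, and the 2 Rpl17 points at the bottom are libraries whose interval lay beyond the window.

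The stalk recruits the translation factors that drive elongation. Rplp0, its base, ranked 6080, 13310 and 3662 in KO and 2950, 11215 and 5123 in WT. Rplp1 and Rplp2 are the acidic proteins bound to it. Rplp1 ranked 6203, 9262 and 6064 in KO and 4587, 7901 and 5006 in WT, and Rplp2 ranked 39725, 46858 and 31482 in KO and 21498, 48887 and 26528 in WT. Their gains were −0.27 ± 0.67, −0.31 ± 0.54 and −0.36 ± 0.32 (SE, n = 3 per group), each with overlapping libraries. Rpsa, a small subunit protein also known as a laminin receptor precursor, ranked 15095, 16796 and 15416 in KO and 14390, 17132 and 12501 in WT (−0.11 ± 0.37).

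Stag2 lies on the X chromosome, as do 4 of the 81 genes. Rpl10, which joins the large subunit late in its assembly, ranked 17924, 22828 and 30045 in KO and 20146, 28072 and 22584 in WT. Rps4x, of the small subunit, ranked 5347, 7539 and 9675 in KO and 4909, 9869 and 8231 in WT. Their gains were 0.02 ± 0.33 and 0.01 ± 0.53. Rpl39, a small protein of the tunnel wall, ranked 7922, 10599 and 13425 in KO and 9409, 10504 and 9664 in WT (−0.08 ± 0.45). Rpl36a ranked 9495, 9106 and 9820 in KO and 2176, 12790 and 6708 in WT (−0.73 ± 0.63), where the 3 KO ranks lay inside the spread of the WT ranks.

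Of the paralogs, 3 of known restricted expression had no open interval at their own start. Rpl10l and Rpl39l, which are known from the testis, and the less studied Rpl32l had no interval at either end in any library. Rpl3l, known from heart and skeletal muscle, was scored at 13490, 11202 and 11759 in KO and 9653, 16820 and 15950 in WT, but at an end it shares with Msrb1. At its own annotated start no library had an interval. Rps27l, a paralog that p53 induces in human cells, was left out of the test because only WT replicates 2 and 3 had an interval in the window. Its interval was present in all 6 libraries with an edge 1026, 1033 and 1004 bp from the lower span end in KO and 1005, 990 and 948 bp in WT, at ranks 20843, 27418 and 22324 in KO and 14596, 36735 and 21242 in WT. Rps4l is annotated as a pseudogene and is not among the 81 genes.

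Rps2, at the entry of the mRNA channel, is the remaining gene without a scored interval. Its span (chr17:24718121-24721927) begins well before the start in the promoter table, and the interval there began 1458, 1453 and 1458 bp past the lower end of the span in KO and 1445, 1453 and 1447 bp in WT. The start was open in every library, at ranks 17545, 21666 and 14283 in KO and 16390, 28257 and 19416 in WT, which overlap (0.24 ± 0.36). Of the 56 tested genes with an entry in the promoter table, 48 had the same ranks in all 6 libraries at the start of the table as at the scored end, and 8 had other ranks. Among these 8, Rpl22, Rps19, Rpl4 and Rpl3l were scored at the end away from the start, as was Rpl41, where only KO replicate 2 differed (34832 as scored, 41042 at the start). The scored end of Rpl19 is far from its start in the table, where the ranks were 66458, 64649 and 68904 in KO and 45453, 76975 and 67226 in WT (gain −0.11 ± 0.23). Rpl4 took the value of an interval past its 3′ end, in a window shared with Snapc5. At the start of Rpl4 the ranks were 35742, 42040 and 48818 in KO and 49793, 51528 and 56696 in WT, without overlap (0.33 ± 0.24, limma adjusted p = 0.545). The value of Rpl38 turned on the window as well. As scored, Rpl38 ranked 8066, 17559 and 52817 in KO and 18268, 18253 and 20312 in WT (−0.05 ± 0.53), and at its start in the table KO replicate 3 ranked 11767 and the other 5 libraries as before. That interval began 1076 bp past the lower end of the span in KO replicate 3, against 577 and 527 bp in KO replicates 1 and 2 and 969, 940 and 948 bp in WT. At the start the genotypes did not overlap, with a gain of 0.67 ± 0.41 that did not pass (limma adjusted p = 0.477). A neighbouring gene shared the scored window for 16 of the 76 genes (21.1%, against 22.4% of all gene ends).

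The width of the best interval, which the ranking did not use, was smaller in KO for most of these genes, as for most gene ends. Median widths of the genes were 788, 791 and 813 bp in KO and 910, 856 and 847 bp in WT. Of 75 genes with an interval in all 6 libraries, 66 were narrower by mean in KO and 9 wider, with a median log2 width difference of −0.12, against 70.4% narrower, 29.6% wider and a median of −0.07 over 12969 gene ends. The 3 KO widths lay below the 3 WT widths in 25 of the 75 genes, against 22.8% of all gene ends, and above them in 0, against 2.15%. At an unadjusted p below 0.05, 12 of the 75 genes were narrower (against 12.7% of all gene ends) and 0 wider (against 1.09%). Only 1 gene, Rps6, was called narrower (limma, adjusted p = 0.0496), against 1.08% of all gene ends, and 0 were called wider, against 0.123%. The median width over the whole best 100000 intervals moved with genotype, at 342, 346 and 356 bp in KO and 405, 374 and 388 bp in WT (two-sided exact permutation test, p = 0.1, the smallest possible). With that median taken off each library, the median difference of these genes was 0.04 and none was called. With the replicate block none was called either (0% of all gene ends in each direction), and 0 were wider and 10 narrower at an unadjusted p below 0.05, against 1.3% and 9.11%.

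**Figure D4:**
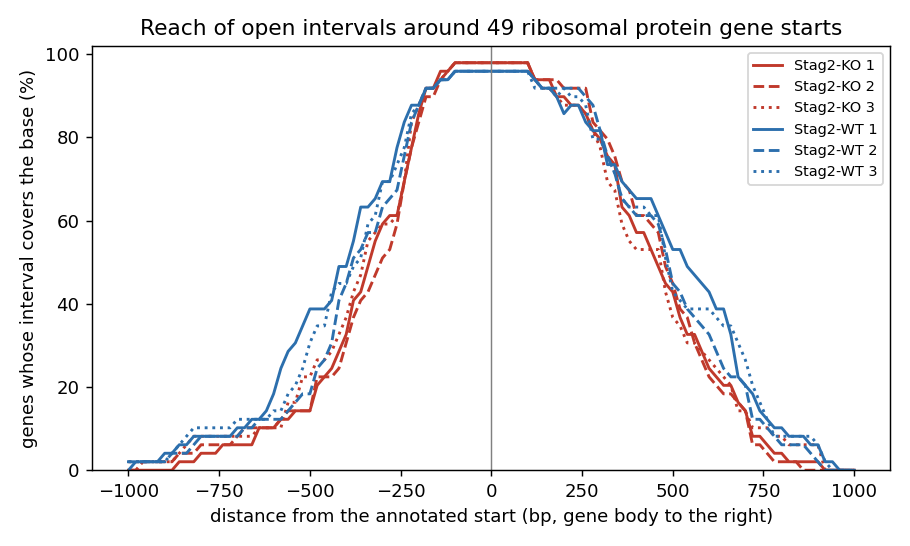
Percentage of 49 ribosomal protein genes whose interval covers each base from 1000 bp before to 1000 bp after the annotated start, in the 3 KO (red) and 3 WT (blue) libraries. The curves meet around the start and part on the flanks, where the median reach downstream was 457 to 472 bp in KO and 481 to 527 bp in WT.

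The difference in width lay on both flanks of the start. For the 49 genes placed around a start, the median reach upstream was 339, 301 and 353 bp in KO and 396, 387 and 373 bp in WT. The median reach downstream was 457, 472 and 468 bp in KO and 527, 481 and 481 bp in WT. On either side the 3 KO medians were all below the 3 WT medians. The 8354 genes placed in the same way over all had upstream medians of 324, 336 and 351 bp in KO and 395, 365 and 381 bp in WT, also without overlap, and downstream medians of 435, 458 and 401 bp in KO and 442, 462 and 442 bp in WT, which overlapped. Whether the ribosomal protein genes differed from the others in this was not tested.

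At Rps6 (chr4:86854099-86857367, minus strand) the interval was 913, 985 and 928 bp wide in KO and 1167, 1142 and 1183 bp wide in WT, so the widest KO interval was narrower than the narrowest WT interval. The mean was 942 ± 38.0 bp in KO and 1164 ± 20.7 bp in WT (SD, n = 3 each), a log2 difference of −0.31 ± 0.04 (SE). Most of it lay downstream, in the gene body, where the interval reached 443, 502 and 491 bp in KO and 659, 642 and 678 bp in WT. Upstream it reached 469, 482 and 436 bp in KO and 507, 499 and 504 bp in WT. The caller placed 3, 3 and 2 summits in the interval in KO and 4 in each WT library. The rank of Rps6 gave no such separation (gain 0.33 ± 0.61). The call at Rps6 was lost with a block on the replicate number (adjusted p = 0.335), with the library's median width taken off (adjusted p = 0.273), and without KO replicate 1, KO replicate 2, WT replicate 1 or WT replicate 3 (adjusted p = 0.1996, 0.0729, 0.168 and 0.191).

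**Figure D5:**
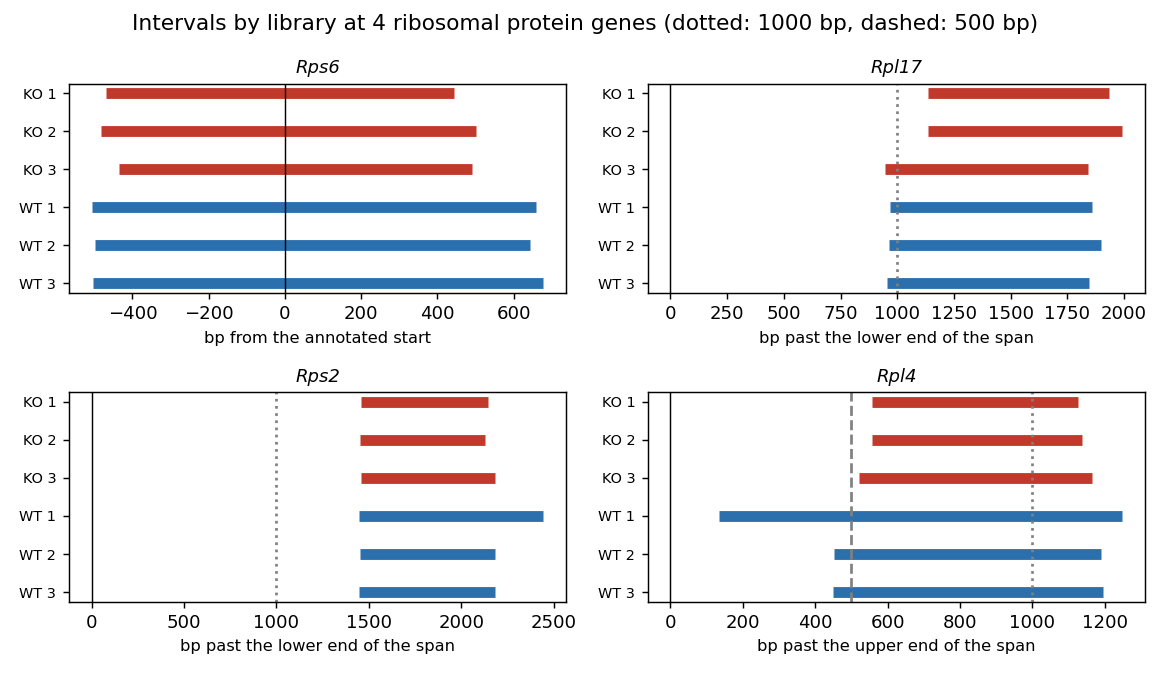
Extent of the open interval in each KO (red, above) and WT (blue, below) library at 4 genes, in bp from the annotated start (Rps6) or from an end of the span (Rpl17, Rps2 and Rpl4). Rps6 is narrower in KO mainly to the right. The Rpl17 intervals cross the 1000 bp limit in 4 of 6 libraries, those of Rps2 in none, and the Rpl4 intervals cross 500 bp only in WT.

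Other widths without overlap did not pass. Rpl36a came closest, with 638, 638 and 666 bp in KO and 816, 778 and 831 bp in WT (log2 difference −0.32 ± 0.05, limma adjusted p = 0.0652). Rpl8, a protein near the peptidyl transferase centre, had the largest difference among them, with 360, 376 and 356 bp in KO and 958, 924 and 403 bp in WT (−0.96 ± 0.36, adjusted p = 0.355). At Rps19, the gene most often mutated in Diamond-Blackfan anaemia, an inherited failure of red cell production, the widths were 378, 377 and 389 bp in KO and 528, 494 and 645 bp in WT (−0.53 ± 0.11, adjusted p = 0.175), at an end that is not its start. Each of the 3 genes was narrower in all KO libraries than in any WT library.

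Genes of related function were set beside the ribosomal protein genes, from lists chosen with earlier results of these data known, and none of their members passed the rank test in either direction. Mitochondrial ribosomal protein genes had a median gain of 0.16, with 48 of 76 above 0. Mrpl2 had the smallest p for a better rank in KO, with 22263, 28165 and 37161 in KO and 39735, 46088 and 53480 in WT (0.69 ± 0.28, limma adjusted p = 0.347). Mrpl22 had the smallest p for a worse one, with 70849, 51154 and 28067 in KO and 19521, 18882 and 25430 in WT (−1.15 ± 0.34, adjusted p = 0.298). Neither pair of groups overlapped at the scored end. At starts of the promoter table the gains were −0.063 for Mrpl2 and −0.14 for Mrpl22, neither past the threshold (adjusted p = 0.934 and 0.845).

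Other genes with TOP mRNAs, which encode translation factors and RNA-binding proteins, had a median gain of 0.21, equal to that of all gene ends, and 21 of 23 were above 0. The translation initiation factor gene Eif4b ranked 6703, 18112 and 15476 in KO and 20707, 33201 and 32718 in WT (1.19 ± 0.42, limma adjusted p = 0.325), and Hnrnpa1 had the smallest p below 0 (−0.21 ± 0.36). Genes of ribosome biogenesis and RNA polymerase I had a median of 0.04 with 21 of 37 above 0. Utp4, of the small subunit processome, ranked 12899, 14263 and 25704 in KO and 33950, 27872 and 34419 in WT (0.93 ± 0.34, adjusted p = 0.334). Nol6, another processome gene, ranked 831, 2778 and 678 in KO and 92, 1154 and 239 in WT (−1.98 ± 1.17), with overlap. Of 13 regulators, the median was 0.05 with 7 above 0, and the extremes by p were Myc (0.31 ± 0.21) and Mtor (−0.40 ± 0.59). Among 4 tested paralogs, with a median of 0.21, these were Rpl7l1 (0.51 ± 0.43) and Rpl36al (−0.53 ± 0.50).

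Leaving out a library moved the median gain of the ribosomal protein genes. It was −0.12 without WT replicate 2, 0.24 without WT replicate 1 and −0.02 without KO replicate 1, beside 0.14, 0.32 and 0.11 for all gene ends. Ranked by −log10 p it was −0.10, against 0.30 for all gene ends. In that ranking 10 of the 76 genes were worse in KO at an unadjusted limma p below 0.05, against 693 of 14270 gene ends. Better in KO were 2, against 2026, and no ribosomal protein gene was called in either direction. With the share of gene ends in each library as a covariate, the median gain was −0.11, against −0.02, in a fit that cannot tell that share apart from genotype. In each of the 19 alternatives with a median, that of the ribosomal protein genes was below that of all gene ends, a difference that was not tested. The alternatives all draw on the same 6 libraries and are not independent repeats. The sign of their own median was not kept.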

How the data were processed

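Peak lists of 6 ATAC-seq libraries were used, in narrowPeak form and on mm10, and DiffBind was used in the study, per the submitters' processing notes. Which aligner and caller made them is not given in the sources used here. Each list was called on its own library and, per the file names, with reads trimmed, duplicates and mitochondrial reads removed and a p limit of 0.01. The deposited lists give the authors' fold over local background (a ratio), −log10 p and −log10 q, a display score and a summit position. The score entered no test. Depth is unknown here, and no counts were recovered. The list of KO replicate 1 started at a −log10 p of 3.00 and the others at 2.00.

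Peaks sharing an interval were merged to it with their best fold, the best 100000 intervals were kept, and −log2 ranks at gene ends (1000 bp windows, GRCm38.p6 spans) and present in 3 or more libraries entered limma 3.58.1 under R 4.3.3 (trend, Benjamini-Hochberg, 0.05). Log2 widths were compared likewise where all 6 libraries had an interval. The rest was done in Python 3.11.15 (matplotlib 3.10.9, SciPy 1.17.1, pandas 2.3.3, NumPy 2.4.6). The fit was tested on simulated lists with a set noise SD of 0.2 in log2 fold, which was not taken from the libraries. It recovered 12 of 232 gene ends changed by 0.5 in log2 fold (5.2%) and 215 of 222 changed by 1 (96.8%). All 6 simulated lists were made from the intervals of WT replicate 2, without the differences in list length, width or interval edges between libraries. The recovered shares therefore cannot be carried over to the real libraries. Moderate changes, and larger ones, could be missed there. Members and lists were chosen with earlier results of these data known. Genes were named by rule: the 5 smallest p per direction, the 5 best and 5 worst mean ranks, called genes, the stalk and Rpsa, X-linked genes, paralogs, genes without an interval, and the smallest p per direction of each other list. Some genes that the rule names are not reported here. Other genes named, such as Rps28, Rpl8, Rps19 and Rpl36a for its width, were chosen after their values were seen.

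Replicate numbers come from the labels, which do not say what they share. Deviations from the group means correlated at 0.18, 0.73 and 0.47 for same-numbered libraries, so the numbers were taken to pair them, from the data alone. KO replicate 3 correlated slightly more with WT replicate 1 (0.50). The library names in the labels number the WT replicates 1, 3 and 4 and the KO replicates 1, 2 and 4, so replicate 2 has different library numbers in the genotypes and the block may not mark a shared origin. Alternatives were other rankings, windows, list lengths, filters and scales, a covariate, the replicate block, and each library left out. Windows of 2000 bp and starts of the promoter table were added after seeing the data.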

Additional observations from a re-analysis of the deposited data

How the results depend on the processing

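No ribosomal protein gene was called better in KO under any alternative, and 1 was called worse under windows of 500 bp (Rpl4, whose interval edge then fell outside the window in the 3 KO libraries) and 0 to 1 with a library left out (Rpl17, adjusted p = 0.00085 without KO replicate 3 and 0.0206 without WT replicate 2). The median gain ran from −0.12 to 0.24 with a library left out. Over all gene ends, the 3 called better and 7 called worse became 5 better ranked by −log10 p, 11 worse with lists as long as the shortest whole list, 1 and 4 on linear ranks, 1 better on quantile-normalized log2 fold, 0 and 2 with an interval required in 1 library, 0 and 2 at annotated starts, 1 and 0 with the share of gene ends as covariate, 1 and 4 with windows of 2000 bp, 1 and 2 at starts of the promoter table, and 0 to 598 better and 1 to 147 worse with a library left out. The highest counts came without KO replicate 3 (598 better) and without WT replicate 2 (147 worse). The cause of these moves was not tested.

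The replicate block left 2 gene ends better and 7 worse and called no ribosomal protein gene, with 8 better and 5 worse at an unadjusted p below 0.05. For width, the block called 0 gene ends wider and 0 narrower (169 and 1182 at an unadjusted p below 0.05), and 0 ribosomal protein genes. Among the named genes, the block changed only the width call of Rps6, which was lost. Taking off the library's median width left 40 gene ends narrower, 0 ribosomal protein genes and a median difference of 0.039, and windows of 500 bp left 8 wider. With a library left out, 6 to 235 gene ends were wider and 47 to 611 narrower, 0 to 5 ribosomal protein genes were narrower, and their median difference was −0.15 to −0.09. Without KO replicate 3 these included Rps6, Rpl34 and Rpl36a, without WT replicate 2 Rps6, Rpl32, Rps12 and Rpl36a, and without WT replicate 3 Rpl8.

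Of 415 values for named genes, 394 kept sign and side of the threshold, 6 lost a call (all Rps6), 3 gained one (Rpl17 as above, and Mrpl22 without KO replicate 3 at −1.51, adjusted p = 0.0172) and 12 changed sign. These were Rpl7l1 (−0.26 ranked by −log10 p, −0.58 with the covariate), Myc (−0.012, windows of 500 bp), Mrpl2 (−0.063 at annotated starts and at starts of the promoter table), with the covariate Rps15a (−0.19), Rpl17 (0.96) and Rpl6 (0.22), Mtor (0.03 without KO replicate 2 and 0.10 without WT replicate 1, in a range from −0.99), Hnrnpa1 (0.073 without WT replicate 1) and Rpl17 (0.27, windows of 2000 bp). Ranks within a list show relative and not absolute openness, an interval can belong to a neighbouring gene, and the depth of the libraries, which limits the weakest intervals, is unknown.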
